A study of Mus musculus with 56 samples.

Results

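The lipid droplet coat and lipolysis genes were 10 genes picked by symbol from a table of 57010 genes: 4 perilipins that coat the droplet (Plin2, Plin3, Plin4 and Plin5), 4 genes of lipolysis (Pnpla2, Lipe, Abhd5 and G0s2) and 2 enzymes of the last step of triacylglycerol synthesis (Dgat1 and Dgat2). They were taken by name, for what they encode, and the rule used no measured value. Earlier results of these data were known when they were chosen. All 10 were found once each and all 10 passed the filter on low counts in every fit. No library held a 0 for any of them, and the lowest count of a gene in a library was 2.

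A lipid droplet is a store of neutral lipid under a single layer of phospholipid, to which perilipins and enzymes bind. Triacylglycerol is made by the acyltransferases DGAT1 and DGAT2 and broken down stepwise, first by adipose triglyceride lipase (encoded by Pnpla2), which ABHD5 activates and G0S2 inhibits, and then by hormone-sensitive lipase (encoded by Lipe). In muscle fibres droplets lie beside mitochondria, and PLIN5, the perilipin of oxidative tissues, holds lipase and droplet together and tethers the droplet to the mitochondrion. Fatty acids freed from the droplet are burned, and they also feed ligands to the nuclear receptors of the PPAR family, which drive transcription of many genes of fat oxidation.

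The libraries came from gastrocnemius, a calf muscle, of mice aged 20 to 22 weeks. All mice, controls included, carried a GFP-tagged ribosomal protein (L10A) switched on by Cre recombinase, and Cre was driven by the Mlc1f promoter of a fast myosin light chain, which is active in skeletal muscle fibres. The other genotype also carried a floxed Elavl1, the gene of the RNA-binding protein HuR, which binds AU-rich mRNA. Groups were female controls, female knockouts, male controls and male knockouts, each taken as 7 mice from the sample numbers. On that reading each mouse gave a library of RNA bound to tagged ribosomes (labelled ribosomal) and a library of total RNA of the whole muscle, 56 in all. Only fibres with Cre carry the tag, while total RNA holds every cell type of the muscle.

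Ribosome-bound libraries held 0.16 to 3.58 M counts (1 M is 1000000, median 1.62) and total libraries 2.43 to 5.85 M (median 3.56). Elavl1 did not pass the test in any of the 4 comparisons of genotypes (log2 fold change 0.27 in ribosome-bound RNA of females with an adjusted p of 0.206, 0.29 in that of males with 0.234, −0.01 in total RNA of females with 0.969 and −0.14 in that of males with 0.477). Counts came from tags at the 3' end of transcripts, which need not lie in the deleted part, so these values do not check the labels, and the mutant groups are called labelled knockouts. Kidney transcripts stood out in 1 total and 1 ribosome-bound library of male labelled knockouts (replicates 6 and 1), and leaving both out ended no genotype call of the 10 genes. Plin4, Lipe, Abhd5 and G0s2 overlap a gene on the other strand (Hdgfl2, 4732471J01Rik, A730085K08Rik and Lamb3 in GENCODE vM21), and the strand setting of the counting is not given in the sources used here, so reads of such a pair may not be told apart.

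Promoters and sites in the 3' untranslated region are shown for the 4 genes that changed with genotype in at least 1 sex, to give the letters in which they can be compared. The promoter windows run from 250 bases before the transcription start to 50 bases after it, from RefSeq for GRCm38.p6, written 5' to 3' on the strand of the gene: Plin5 at chr17:56117499-56117798 (minus strand), Plin4 at chr17:56109733-56110032 (minus strand), Plin3 at chr17:56290462-56290761 (minus strand) and Pnpla2 at chr7:141454938-141455237 (plus strand). Plin4 and Plin5 are neighbours on chromosome 17, on the same strand with 0 annotated genes between them. Capitals mark matches on either strand to the hexamer AGGTCA that nuclear receptors bind, the E-box CACGTG, the CCAAT box CCAAT, the GC box GGGCGG, the TATA box TATAAA and the forkhead motif GTAAACA.
Plin5: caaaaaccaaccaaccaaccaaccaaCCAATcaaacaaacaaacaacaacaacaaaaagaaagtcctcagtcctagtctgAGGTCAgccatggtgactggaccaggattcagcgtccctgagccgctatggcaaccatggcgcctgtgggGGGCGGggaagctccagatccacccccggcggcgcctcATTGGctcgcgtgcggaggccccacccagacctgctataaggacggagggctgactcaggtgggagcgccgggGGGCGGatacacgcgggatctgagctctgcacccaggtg
Plin4: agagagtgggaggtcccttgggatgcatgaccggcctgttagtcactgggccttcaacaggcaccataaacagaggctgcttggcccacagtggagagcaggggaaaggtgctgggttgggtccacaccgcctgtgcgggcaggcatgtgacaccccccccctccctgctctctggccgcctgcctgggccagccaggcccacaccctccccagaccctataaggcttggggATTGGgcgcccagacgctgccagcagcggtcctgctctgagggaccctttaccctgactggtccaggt
Plin3: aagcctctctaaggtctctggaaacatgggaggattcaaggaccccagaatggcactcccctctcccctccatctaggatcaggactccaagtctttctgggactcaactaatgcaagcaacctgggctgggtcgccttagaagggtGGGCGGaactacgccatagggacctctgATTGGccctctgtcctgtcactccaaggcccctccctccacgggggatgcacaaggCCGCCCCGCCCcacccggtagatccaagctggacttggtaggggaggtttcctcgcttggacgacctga
Pnpla2: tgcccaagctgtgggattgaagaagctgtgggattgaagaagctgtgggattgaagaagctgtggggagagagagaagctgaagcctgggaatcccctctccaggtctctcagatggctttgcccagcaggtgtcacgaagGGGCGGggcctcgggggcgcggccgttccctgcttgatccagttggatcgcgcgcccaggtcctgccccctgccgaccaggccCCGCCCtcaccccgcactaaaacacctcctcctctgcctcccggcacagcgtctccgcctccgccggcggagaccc

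The Plin5 window held 1 AGGTCA, at −170 from the start base, and 16% of 27025 promoter windows held this hexamer. It further held CCAAT at −224 and −62 and GGGCGG at −100 and 11. Windows with CCAAT made up 38% and windows with GGGCGG 35.9% of all. The Pnpla2 window held GGGCGG at −109 and −26 and no AGGTCA, and the Plin4 window held CCAAT at −18. The Plin3 window held CCAAT at −75 and GGGCGG at −103, −19 and −14. CACGTG was in 7.24%, TATAAA in 14.2% and GTAAACA in 3.52% of windows, and in none of the 4 shown. The full PPAR element AGGTCANAGGTCA, a pair of such hexamers with 1 base between them that also counts as AGGTCA, was in 0.0444% of windows and in none of the 8 windows found for these genes. Such a match is a description of the window and not a binding site.

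HuR is known for binding AU-rich stretches of 3' untranslated regions, so the pentamer ATTTA was counted in them (GENCODE vM21, GRCm38). Pnpla2 and Plin3 each held 1 in 1075 and 2256 bases, and Plin4 and Plin5 held 0 in 1416 and 428 bases. Among other genes with a region of like length (within 20%), 77.7% held at least 1 beside Pnpla2, 93.4% beside Plin3, 84.5% beside Plin4 and 46.6% beside Plin5. Abhd5, which did not pass any test of genotype, held 7 in 1922 bases, where 90.4% of regions of like length held at least 1 and the median was 3. Of the other genes that did not pass within a sex, it was in Dgat2, with 2 in 888 bases (68.8% of like length) and in Lipe, with 1 in 300 bases (37.1%). The sites below are 25 bases long with the pentamer in capitals, on the strand of the gene: Pnpla2 at chr7:141460036-141460060 (plus strand), Plin3 at chr17:56277686-56277710 (minus strand) and the first of Abhd5 at chr9:122379696-122379720 (plus strand).
Pnpla2: gtgaagaattATTTAtttttgccaa
Plin3: tgttttcacaATTTAgttttatcag
Abhd5: agctttccacATTTAaaccaaccag

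Plin5 was lower in labelled knockouts of both sexes and in both kinds of RNA. Levels are CPM, the counts of a gene for each 1 M counts of its library, scaled within each kind of RNA. In ribosome-bound RNA of females, Plin5 ranged from 50.5 to 201 CPM in controls (median 97.8) and from 29.3 to 62.1 in labelled knockouts (median 40.3), with 5 of 7 labelled knockouts below every control. In males it ranged from 48.8 to 177 CPM in controls (median 95.3) and from 21.9 to 66.4 in labelled knockouts (median 45.7), with 4 of 7 below every control. The value of 21.9 came from labelled knockout 2, which held 0.16 M counts and only 3 of Plin5, so it is imprecise. The control libraries spread more widely than the labelled knockouts in both sexes, and the lowest controls lay within the range of the labelled knockouts.

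The ribosome-bound log2 fold change of Plin5 was −1.34 in females (standard error 0.275, adjusted p = 0.000841, 2.53-fold lower) and −0.93 in males (standard error 0.246, adjusted p = 0.0135, 1.9-fold lower). In total RNA Plin5 ranged from 46.2 to 95 CPM in female controls (median 62.1) and from 17.4 to 39.2 in female labelled knockouts (median 25.6), and the groups did not overlap. In total RNA of males it ranged from 40.5 to 105 CPM in controls (median 66) and from 20.3 to 56.7 in labelled knockouts (median 38.7), which overlap. The total log2 fold change was −1.21 in females (standard error 0.206, adjusted p = 0.000255) and −0.81 in males (standard error 0.199, adjusted p = 0.00843). The male effect minus the female effect was 0.41 in ribosome-bound RNA (95% interval −0.34 to 1.16, adjusted p = 0.546) and 0.41 in total RNA (−0.18 to 0.99, adjusted p = 0.677), so a difference between the sexes was not detectable for Plin5. Whole-muscle RNA cannot tell fewer cells of a type from less RNA per cell.

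Plin3, a perilipin found on many cell types' droplets and in the cytosol, was lower in female labelled knockouts. In ribosome-bound RNA it ranged from 45.3 to 73.4 CPM in female controls (median 53.7) and from 21.7 to 42.1 in female labelled knockouts (median 26), with no overlap. In total RNA the ranges were 63.2 to 87.1 CPM (median 69.1) and 37.6 to 56.3 (median 53.2), again with no overlap. The log2 fold change was −0.82 in ribosome-bound RNA (standard error 0.175, adjusted p = 0.00122) and −0.52 in total RNA (standard error 0.107, adjusted p = 0.00184). In males Plin3 averaged 45.4 ± 7.87 CPM (SD, n = 7) in ribosome-bound RNA of controls and 42.9 ± 12.6 in that of labelled knockouts, and its log2 fold change was −0.01 (95% interval −0.31 to 0.28, adjusted p = 0.978). In total RNA of males it was −0.11 (adjusted p = 0.493).

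Plin4, the largest perilipin, known from the white fat cell and from muscle, followed the same order in females. Ribosome-bound levels ranged from 75.7 to 125 CPM in female controls (median 95.4) and from 42.1 to 79.1 in female labelled knockouts (median 58.7), and 5 of 7 labelled knockouts lay below all controls. In total RNA the ranges were 199 to 352 CPM (median 221) and 120 to 174 (median 162), with no overlap. The log2 fold change was −0.69 (standard error 0.166, adjusted p = 0.00374) and −0.63 (standard error 0.109, adjusted p = 0.000327) in that order. Male log2 fold changes were 0.06 (adjusted p = 0.856) and −0.01 (adjusted p = 0.971) in the same order, with ranges in total RNA of 139 to 178 CPM in controls and 129 to 181 in labelled knockouts. Total RNA held 157 ± 14.3 CPM of Plin4 (SD, n = 7) in male controls, 156 ± 22.2 in male labelled knockouts and 154 ± 18.6 in female labelled knockouts, against 239 ± 53.4 in female controls.

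Plin2, the perilipin that coats droplets in most tissues, did not pass the test. Its total log2 fold change was 0.39 in females (95% interval 0.07 to 0.70, adjusted p = 0.114), where 5 of 7 labelled knockouts lay above every control (30.8 to 51.1 CPM against 25 to 37.9). In males it was 0.10 (adjusted p = 0.688), over both sexes 0.24 (adjusted p = 0.0954, and 0.0205 without male control 21), and in ribosome-bound RNA 0.32 in females (adjusted p = 0.258) and −0.07 in males (adjusted p = 0.864). Within a library, where scaling plays no part, total RNA of female controls held 1.38 to 3.63 counts of Plin5 for 1 of Plin2 (median 1.83) and that of female labelled knockouts 0.412 to 1.27 (median 0.595), and the groups did not overlap. Total RNA of male controls held 0.684 to 2.65 (median 2.26) and that of male labelled knockouts 0.489 to 1.18 (median 0.921).

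**Figure D1:**
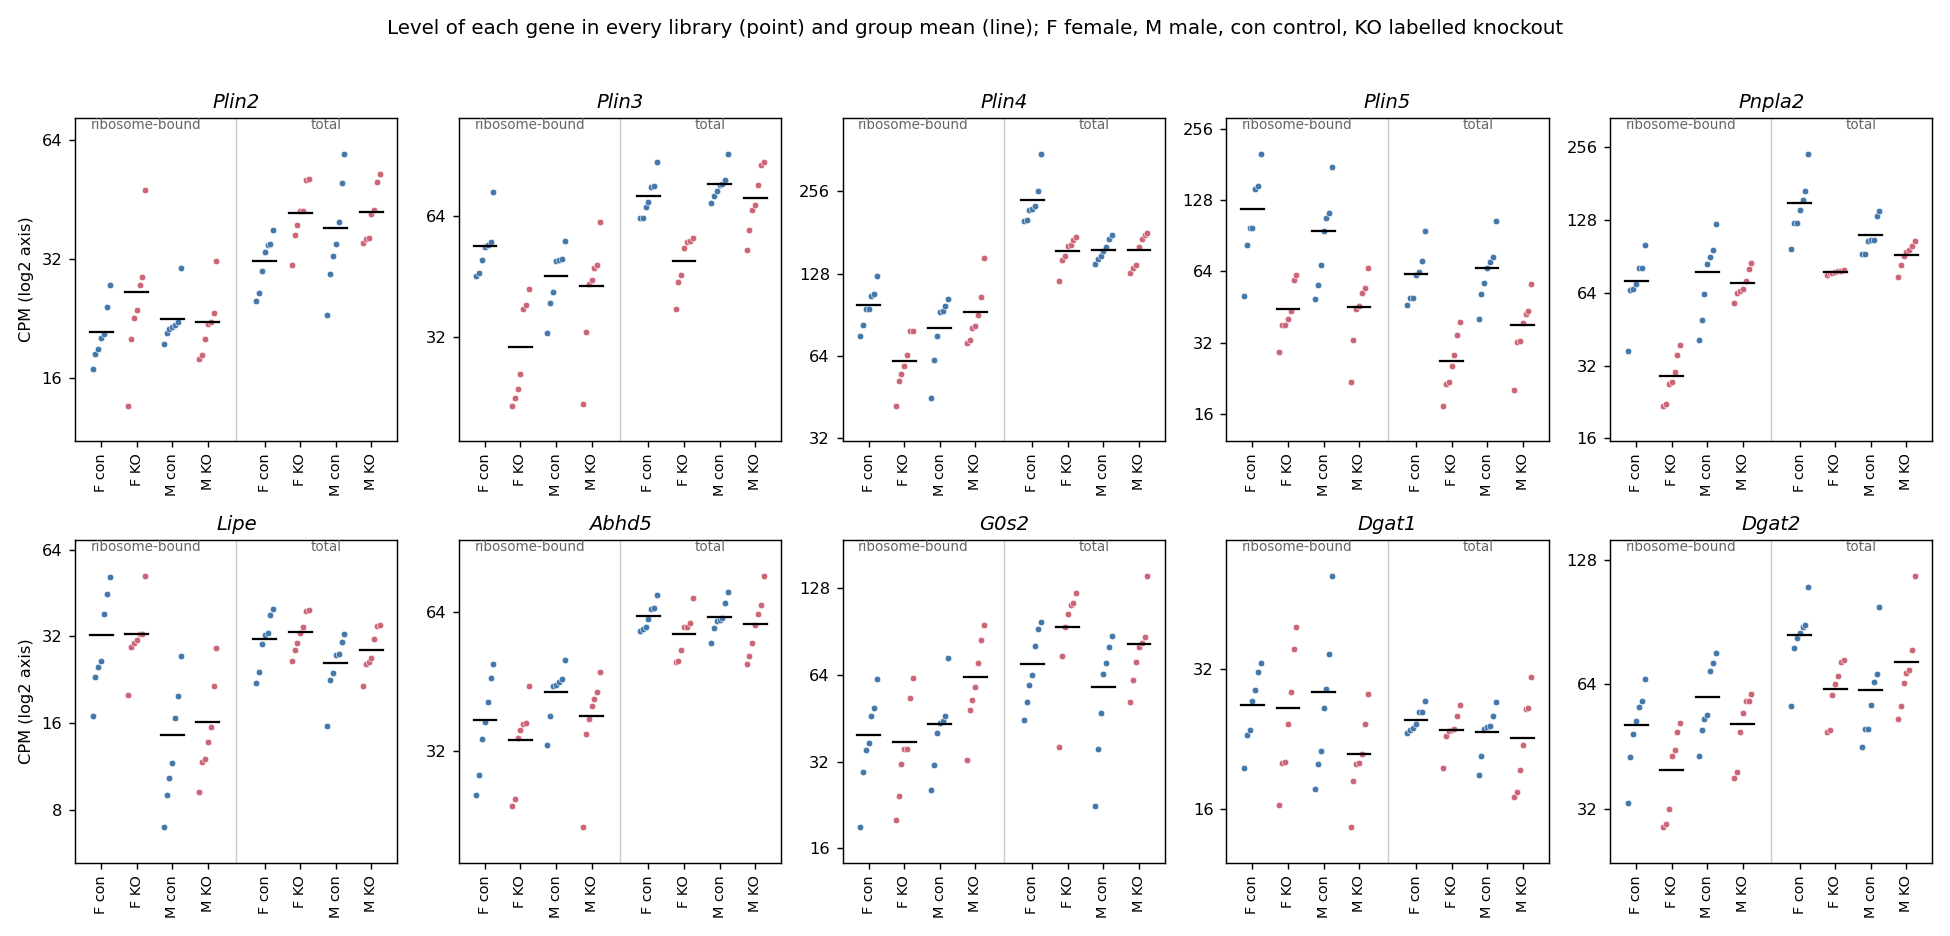
Level of each of the 10 genes in CPM (vertical log2 axis, a scale of its own in each panel) in the 8 groups, with ribosome-bound RNA left and total RNA right of the grey line. Points are libraries (controls blue, labelled knockouts red) and lines are means of 7. Plin5 is lower in labelled knockouts in all 4 pairs of groups, and Plin3, Plin4 and Pnpla2 in the 2 female pairs. The 2 kinds of RNA were scaled apart, so levels compare within a kind.

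Pnpla2, the lipase of the first step, was lower in female labelled knockouts in both kinds of RNA, at about the size seen for Plin5. In ribosome-bound RNA Pnpla2 ranged from 36.7 to 101 CPM in female controls (median 69.8) and from 21.9 to 39 in female labelled knockouts (median 27.5), with 6 of 7 below all controls. In total RNA it ranged from 97.5 to 241 CPM in female controls (median 141), and all 7 female labelled knockouts lay between 75.6 and 79.9 (median 78). The log2 fold change was −1.38 in ribosome-bound RNA (standard error 0.207, adjusted p = 1.68e-05, 2.6-fold lower) and −0.95 in total RNA (standard error 0.130, adjusted p = 1.98e-05, 1.93-fold lower). In males the ribosome-bound ranges were 40.9 to 123 CPM in controls and 58.4 to 85.4 in labelled knockouts, and the log2 fold change of −0.18 did not pass (95% interval −0.52 to 0.16, adjusted p = 0.581). In total RNA of males Pnpla2 ranged from 92.3 to 140 CPM in controls and from 74.6 to 105 in labelled knockouts (−0.27, adjusted p = 0.154).

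The partners of this lipase did not pass the test in any of the 4 comparisons. Abhd5, its activator, had log2 fold changes of −0.20 and −0.13 in ribosome-bound RNA of females and males and of −0.13 and −0.05 in total RNA (adjusted p = 0.389, 0.614, 0.394 and 0.734). G0s2, its inhibitor, had −0.24 and 0.44 in ribosome-bound RNA (adjusted p = 0.573 and 0.224) and 0.42 and 0.47 in total RNA of females and males (adjusted p = 0.311 and 0.206). The level of G0s2 varied more than that of most of these genes, from 22.5 to 87.3 CPM among total libraries of male controls and from 51.4 to 141 among those of male labelled knockouts. Averaged over the sexes, the total log2 fold change of G0s2 was 0.45 (95% interval 0.09 to 0.81, adjusted p = 0.0627). It passed with no filter, with limma-voom, in the fit of all 56 libraries and without any 1 of female controls 15 and 16, female labelled knockout 9, male controls 20 and 22 and male labelled knockout 2 (adjusted p from 0.0161 to 0.05).

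Counts of lipase for 1 count of inhibitor were lower in labelled knockouts of both sexes by group median. In total RNA the Pnpla2 to G0s2 ratio was 1.06 to 5.42 in female controls (median 2.43) and 0.632 to 2.18 in female labelled knockouts (median 0.766). In males it was 1.22 to 4.67 (median 2.17) and 0.529 to 1.76 (median 1.18). The ranges overlap in both sexes, and among female labelled knockouts replicate 9 stood at 2.18 and the next highest at 1.05. Pnpla2 for 1 count of Abhd5 in ribosome-bound RNA was 1.43 to 2.72 in female controls (median 1.76) and 0.625 to 1.44 in female labelled knockouts (median 0.75), against medians of 1.68 and 1.9 in males. These ratios are descriptions, since they reuse the counts tested above.

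**Figure D2:**
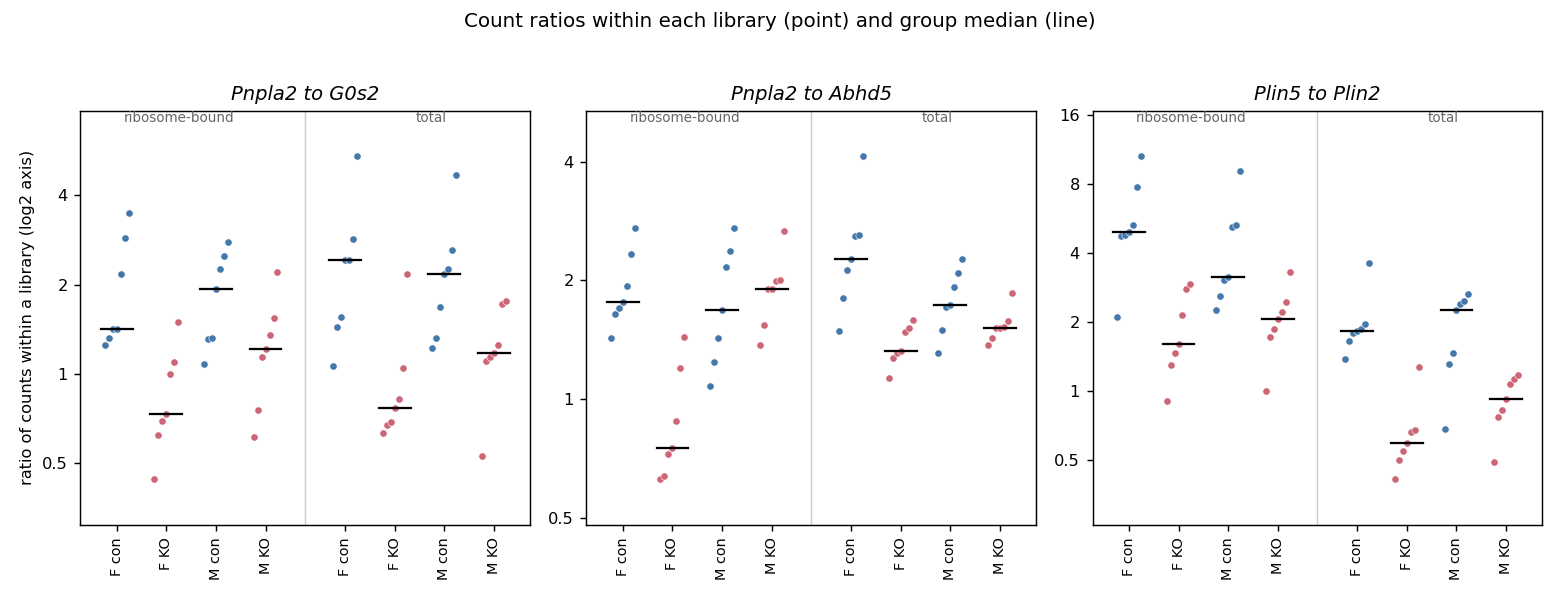
Ratio of the counts of 2 genes within each library (vertical log2 axis) in the 8 groups, with ribosome-bound RNA left and total RNA right of the grey line. Points are libraries and lines are group medians. In total RNA of females the Plin5 to Plin2 ratio is 1.38 to 3.63 in controls and 0.412 to 1.27 in labelled knockouts.

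Lipe, whose enzyme takes the second step and is under adrenergic control, did not pass with genotype. Its log2 fold changes were 0.22 and 0.09 in ribosome-bound RNA of females and males and 0.07 and 0.12 in total RNA (adjusted p from 0.595 to 0.893). Lipe did differ between the sexes. Ribosome-bound RNA held 32.3 ± 12.7 CPM (SD, n = 7) in female controls and 14.5 ± 7.2 in male controls, a log2 difference of −1.09 (standard error 0.253, adjusted p = 0.00438), with 5 of 7 males below all females. The 9 fat cell markers other than Car3, given in full further down, summed to 197 to 292 CPM in the same female controls and 106 to 179 in the male controls. Of 7 fat cell markers tested 2 were lower in males (3.37% of all genes were). Their part in the difference of Lipe was not tested. In total RNA the same difference was −0.26 (95% interval −0.55 to 0.02, adjusted p = 0.273).

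Dgat1 and Dgat2, which add the last fatty acid to diacylglycerol, did not pass in any of the 4 comparisons of genotypes. Dgat2 had a log2 fold change of −0.43 in ribosome-bound RNA of females (95% interval −0.76 to −0.09, adjusted p = 0.0762) and of −0.44 in total RNA of females (−0.77 to −0.11, adjusted p = 0.0872). The first passed with no filter (adjusted p = 0.0418) and without female control 19 (0.042) or female labelled knockout 9 (0.0463), and the second with limma-voom (0.0418) and in the 14 libraries alone (0.032). In males the values were −0.23 (adjusted p = 0.354) and 0.21 (adjusted p = 0.394). Ribosome-bound Dgat2 ranged from 33 to 65.9 CPM in female controls and from 28.8 to 51.6 in female labelled knockouts. Dgat1 stayed between −0.30 and 0.03 (adjusted p from 0.340 to 0.952).

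Counted over the 10 genes, 4 were lower and 0 higher in ribosome-bound RNA of female labelled knockouts (Plin3, Plin4, Plin5 and Pnpla2), where 16.8% of 9098 genes tested passed, 8.41% of all as lower and 8.44% as higher. In ribosome-bound RNA of males 1 was lower (Plin5) and 0 higher, beside 8.96% of all genes, 4.87% lower and 4.09% higher. In total RNA 4 were lower in females (the same 4 genes), beside 8.49% of 12860 genes, 4.7% lower and 3.79% higher. In total RNA of males 1 was lower (Plin5), beside 14.2% of all genes, 7.36% lower and 6.83% higher. Groups that do not overlap were found for 1 of the 10 genes in ribosome-bound RNA of females (2.56% of all genes) and for 4 in total RNA of females (2.59%), against 0 in males (2.57% and 2.12%). The median log2 fold change of the 10 genes was −0.33 in ribosome-bound and −0.29 in total RNA of females and −0.10 and −0.03 in males, beside −0.0158, 0.0148, −0.00605 and 0.00154 for all genes. All 365 refits of these 10 calls, with other tools, scalings, filters and libraries left out, kept them.

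**Figure D3:**
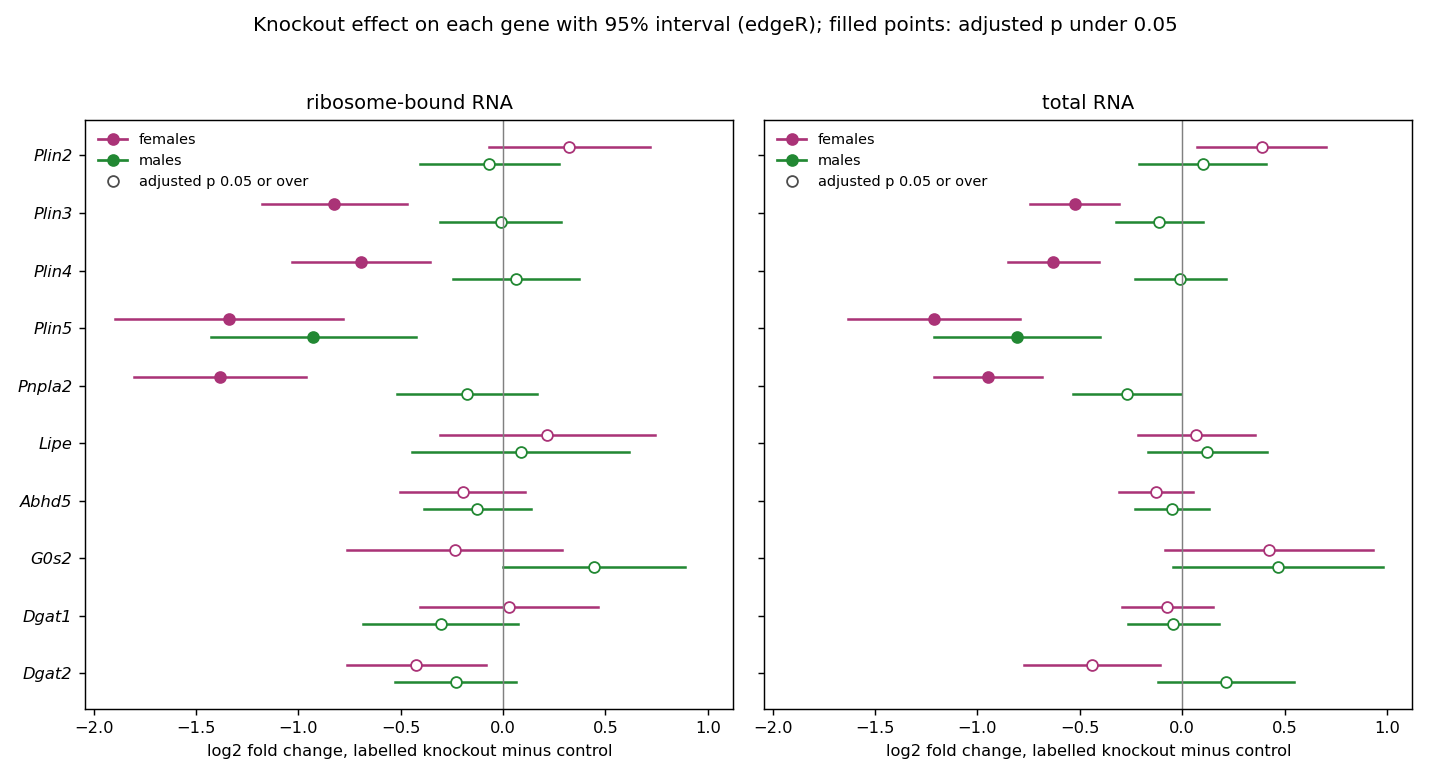
Log2 fold change of each gene, labelled knockout minus control (horizontal axis), with its 95% interval, in ribosome-bound RNA (left) and total RNA (right). Purple is females and green males, and filled points have an adjusted p under 0.05. In both panels 4 genes are filled in females and Plin5 alone in males.

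Averaged over the sexes, 5 genes were lower in ribosome-bound RNA (20.2% of all genes passed, 10.4% lower and 9.8% higher): Plin5 (−1.13, adjusted p = 2.95e-05), Pnpla2 (−0.78, adjusted p = 6.21e-05), Plin3 (−0.42, adjusted p = 0.0082), Dgat2 (−0.33, adjusted p = 0.0321) and Plin4 (−0.31, adjusted p = 0.0436). The calls of Dgat2 and Plin4 were both lost, leaving 3, without any 1 of female controls 21, female labelled knockouts 2, 10 and 12, male controls 22 and 25 or male labelled knockouts 6 and 14 (adjusted p from 0.0517 to 0.0621 for Dgat2 and from 0.0571 to 0.0794 for Plin4). That of Plin4 was also lost without female controls 14 and 17, female labelled knockouts 1 and 9, male controls 26 and 27 or male labelled knockouts 10 and 13 (adjusted p from 0.0503 to 0.0784), and with RLE scaling (0.0514). In total RNA 4 were lower (24.8% of all genes passed, 12.2% lower and 12.6% higher). They were Plin5 (−1.01, adjusted p = 8.66e-06), Pnpla2 (−0.61, adjusted p = 1.79e-05), Plin3 (−0.32, adjusted p = 0.00252) and Plin4 (−0.32, adjusted p = 0.00334). Within males Plin5 alone passed, so these means do not show the other genes lower in males. Male ribosome-bound log2 fold changes were −0.01 for Plin3 and 0.06 for Plin4.

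The difference between the sexes was tested as the male effect minus the female effect. In ribosome-bound RNA it passed for Pnpla2 (1.20, standard error 0.268, adjusted p = 0.0113) and Plin3 (0.81, standard error 0.228, adjusted p = 0.0395), beside 3.43% of all genes, 1.89% higher and 1.54% lower. Plin4 was just outside (0.76, standard error 0.225, adjusted p = 0.0512), and passed with no filter, DESeq2, limma-voom and the fit of all 56 libraries (adjusted p from 0.0145 to 0.0409) and without any 1 of female controls 18 and 19, female labelled knockouts 5 and 6, male controls 22, 25 and 26 or male labelled knockout 6 (adjusted p from 0.0343 to 0.0487). Plin3 no longer passed without any 1 of female controls 15, 16 and 21, female labelled knockouts 1, 5, 6 and 10, male controls 23 and 27 or male labelled knockouts 6, 10 and 13 (adjusted p from 0.0512 to 0.0836). In total RNA edgeR called 0 of the 10 genes and 0 of 12860 (0% of all genes), although 1225 genes, and 4 of the 10, had an unadjusted p under 0.05. DESeq2 and limma-voom also called 0 of the 10, and 8 and 0 of all genes. Those 4 were Plin4 (0.62, adjusted p = 0.177), Pnpla2 (0.68, adjusted p = 0.188), Dgat2 (0.65, adjusted p = 0.344) and Plin3 (0.41, adjusted p = 0.351). In ribosome-bound RNA, reads outside genes had medians of 9.11% in female labelled knockouts and 5.38% in female controls. In males they were 5.58 and 5.23%. The part of this in the ribosome-bound sex difference was not tested.

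Among controls, males held less Plin4 than females in total RNA (157 ± 14.3 against 239 ± 53.4 CPM, SD, n = 7 each, log2 difference −0.61, adjusted p = 0.000445), and the groups did not overlap. Pnpla2 was lower in males as well (111 ± 18.8 against 151 ± 46.1 CPM, −0.44, adjusted p = 0.0281), beside 8.7% of all genes, 3.95% lower and 4.75% higher. Groups that do not overlap made up 3.23% of all genes here. The call of Pnpla2 was lost without female control 17, 18 or 21 or male control 21, 22, 25 or 27 (adjusted p from 0.05, above the threshold before rounding, to 0.112), with limma-voom (0.0635), in the 14 libraries alone (0.0942), in the fit of all 56 (0.0679) and when the 5 total libraries with over 19% of their reads in no gene were left out (0.184). Dgat2 did not pass (−0.43, adjusted p = 0.095), but did with limma-voom (0.0426) and without male control 20 (−0.58, 0.0157). Plin2 did not pass either (0.29, adjusted p = 0.271), but was called as higher in males without those 5 total libraries (0.466, 0.0444). Of 10 fat cell markers 4 were lower in males, and the summed level of those other than Car3 was 663 to 1160 CPM in females and 524 to 1060 in males. Their part in the lower Plin4 was not tested. In ribosome-bound RNA Lipe passed alone among the 10 genes (7.63% of all genes passed, 3.37% lower and 4.25% higher, and 2.34% had groups that do not overlap), and Plin4 and Pnpla2 had −0.26 (adjusted p = 0.315) and 0.09 (adjusted p = 0.797). Comparisons of sexes in controls and of genotypes share the control libraries, so they are not independent of each other.

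Ribosome-bound and total RNA were compared in 1 fit of all libraries, with both kinds scaled together. In controls, Plin5 was higher in ribosome-bound RNA (log2 difference 1.19, standard error 0.157, adjusted p = 7.8e-10), as was Dgat1 (0.68, standard error 0.107, adjusted p = 7.84e-08), and Plin4 was lower (−0.51, standard error 0.0928, adjusted p = 1.56e-06). Of all genes 78.2% passed in controls, 35.2% higher and 43.1% lower, so passing says little about these genes. In labelled knockouts, where 75.9% passed, 31.9% higher and 44% lower, Plin5 (1.03), Dgat1 (0.55) and Plin4 (−0.57) had the same signs, and Pnpla2 (−0.38, adjusted p = 0.00554) and Plin2 (−0.27, adjusted p = 0.0471) were lower. The call of Plin2 was lost without both libraries of female control 17, female labelled knockout 1, 2 or 6, male control 23 or male labelled knockout 6, 13 or 14 (adjusted p from 0.0506 to 0.123). It was also lost without the ribosome-bound libraries under 0.75 M counts (0.111), without total libraries of female labelled knockouts 5, 6 and 12 (0.202) and without the 2 libraries that held kidney transcripts (0.0573). G0s2 (−0.39, adjusted p = 0.0592) passed without any 1 of 12 mice, female controls 14, 18 and 19, female labelled knockouts 2, 5 and 9, male controls 20, 25 and 26 and male labelled knockouts 2, 10 and 12 (adjusted p from 0.0277 to 0.05). G0s2 also passed with no filter (0.000561) and with limma-voom (0.0312). So it did without ribosome-bound libraries under 0.75 M counts (0.0357) or total libraries over 19% outside genes (0.00906). Plin3 passed in labelled knockouts without female labelled knockout 9 or 12 or male labelled knockout 12 (adjusted p from 0.017 to 0.0427). It also passed without those ribosome-bound libraries (0.0475) or total female labelled knockouts 5, 6 and 12 (0.031). Abhd5 passed there without the 2 libraries that held kidney transcripts (0.0298). In controls Dgat2 passed without male control 20 (0.0376), and Pnpla2 without male control 26 (0.0479) and with no filter (0.0385).

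The scaling sets the zero of this comparison. The median of all genes was −0.10 in controls and −0.17 in labelled knockouts with TMM scaling, and −0.33 and −0.36 with RLE scaling. With RLE 2 of the 10 genes were higher and 5 lower in controls and 2 higher and 6 lower in labelled knockouts, against 2 and 1 and 2 and 3 with TMM. Among all called genes the share that was higher went from 44.9% to 34.1% in controls and from 42.1% to 32.9% in labelled knockouts. Plin5, Dgat1 and Plin4 kept their side of 0 under both scalings,.

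**Figure D4:**
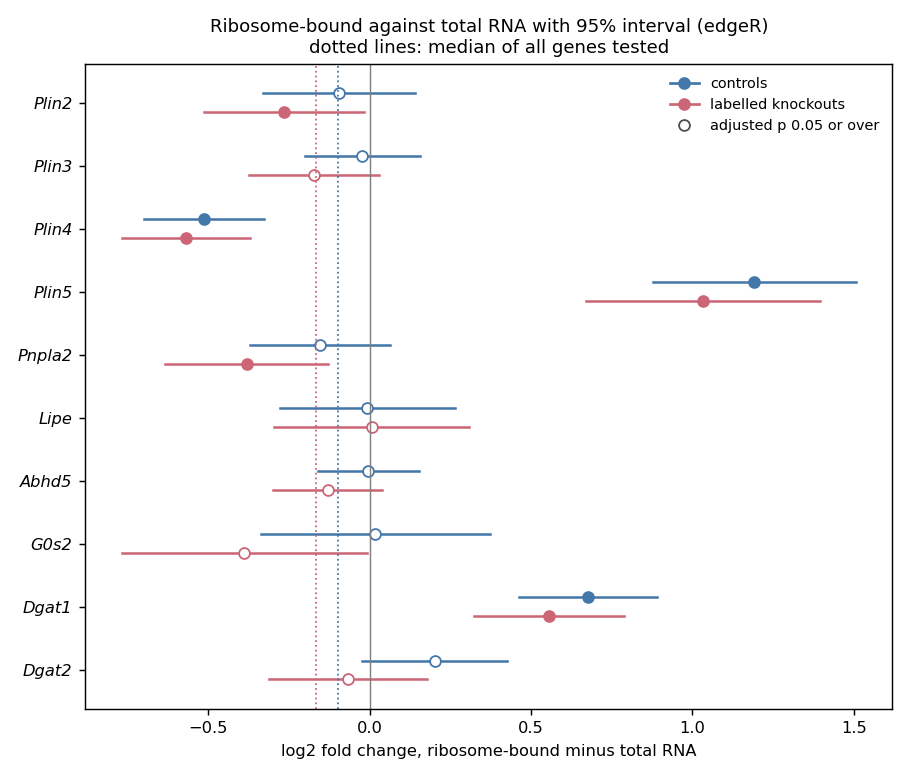
Log2 fold change of each gene, ribosome-bound minus total RNA (horizontal axis), with its 95% interval, in controls (blue) and labelled knockouts (red), both sexes averaged. Filled points have an adjusted p under 0.05 and dotted lines are the medians of all genes tested, −0.10 and −0.17. Plin5 and Dgat1 lie right of 0 and Plin4 left of it in both genotypes.

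On that common scale the mean level of Plin5 ran from 141 ± 57.2 CPM in ribosome-bound RNA of female controls and 116 ± 51.6 in that of male controls down to 31.7 ± 9.27 and 22.2 ± 6.29 in total RNA of male and female labelled knockouts. Between them lay ribosome-bound RNA of male and female labelled knockouts (55.1 ± 18.5 and 51.6 ± 13.5) and total RNA of male and female controls (54.7 ± 17.1 and 51.1 ± 13.8), 4 groups whose values cover each other. Whether genotype changed the ribosome-bound level beyond the total level was tested as an interaction. It passed for 0 of the 10 genes in either sex by edgeR, DESeq2 and limma-voom, beside 3.46% of all genes in females (1.85% higher, 1.61% lower) and 0.128% in males (0.0319% higher, 0.0956% lower) by edgeR. In each sex 1 of the 10 was under 0.05 before adjustment, Pnpla2 in females (−0.52, adjusted p = 0.262) and Dgat2 in males (−0.47, adjusted p = 0.532). For Plin5 the interval of this difference was −0.89 to 0.52 in females and −0.78 to 0.51 in males.

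Other genes of the same processes were taken from lists written from general knowledge, with earlier results of these data known. Their counts are descriptions. Of 19 PPAR regulators and targets tested in ribosome-bound RNA of females, 10 were lower (8.41% of all genes were) and 0 higher (8.44%) (median −0.56). They included Acot2, a mitochondrial acyl-CoA thioesterase (−2.08, adjusted p = 7.3e-05), Mlycd, which breaks down malonyl-CoA (−1.18, adjusted p = 3.6e-05), Slc25a20, the carnitine-acylcarnitine carrier (−0.70), and the acyl-CoA synthetase Acsl1 (−0.66). In males 3 of 19 were lower (4.87% of all genes were). They were the fatty acid transporter Cd36 (−0.82, adjusted p = 0.0232), Acadl (−0.46) and Hadha (−0.46), 2 enzymes of mitochondrial beta oxidation. In total RNA 10 of 22 were lower in females (median −0.37) and 4 of 22 in males (median −0.19), with 0 higher in either. Of all genes, 4.7% were lower and 3.79% higher in females, and 7.36% lower and 6.83% higher in males.

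From the earlier steps of triacylglycerol synthesis Lpin1 and Agpat1 are named, with no count for that list. Of all genes, 8.41% were lower and 8.44% higher in ribosome-bound RNA of females. In total RNA 4.7% were lower in females and 7.36% in males. Lpin1, the phosphatidate phosphatase that makes diacylglycerol, was lower in ribosome-bound RNA of females (−0.91, adjusted p = 1.54e-05) and in total RNA of females (−0.79, adjusted p = 7.44e-05) and males (−0.45, adjusted p = 0.0126). Agpat1, an acyltransferase upstream of it, was higher in ribosome-bound RNA of females (0.59, adjusted p = 0.000499). Among other lipid droplet and lipase genes, 4 of 15 were lower in ribosome-bound RNA of females (8.41% of all genes were). These were Rab18 (−0.52, adjusted p = 0.000917), Hilpda, an inhibitor of the Pnpla2 lipase (−0.82, adjusted p = 0.0104), lipoprotein lipase Lpl (−0.61, adjusted p = 0.0312) and Acsl3 (−0.74, adjusted p = 0.0353). In males 2 of 15 were lower (4.87% of all genes were), Fitm2, which is needed for droplets to bud (−0.68, adjusted p = 0.00157), and Acsl3 (−0.70, adjusted p = 0.0144). The lipase gene Ces1d was higher there (0.88, adjusted p = 0.0416), beside 4.09% of all genes. Total RNA had 2 of 17 lower and 1 higher in females (4.7% and 3.79% of all genes) and 2 lower and 3 higher in males (7.36% and 6.83% of all genes), counts of few genes that lie near those shares for the lower genes in males and the higher genes in females.

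The counts for the adrenergic and insulin control of lipolysis were near the share of all genes in females. Of 12 such genes tested in ribosome-bound RNA, 1 was higher in females (8.44% of all genes were), the protein kinase A subunit Prkar2a (0.34, adjusted p = 0.0484), and 2 were lower in males (4.87% of all genes were), Insr, the insulin receptor (−0.58, adjusted p = 0.0134), and Prkacb, another subunit of that kinase (−0.50, adjusted p = 0.0237). In total RNA 4 of 13 were lower in males (7.36% of all genes were), among them Insr (−0.72, adjusted p = 0.00126), the cyclic AMP phosphodiesterase Pde4d (−0.89, adjusted p = 0.00444) and Prkacb (−0.38, adjusted p = 0.0144). In females 1 of 13 was lower (4.7% of all genes were), Insr (−0.53, adjusted p = 0.0125). The difference between the sexes passed for 0 of these genes in either kind of RNA by edgeR.

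Markers of other cells moved with genotype too. Fat cells are also known to express Pnpla2, Lipe, Plin4 and Dgat2. The 9 fat cell markers other than Car3, which muscle fibres also express, summed to 663 to 1160 CPM in total RNA of female controls and 683 to 1320 in that of female labelled knockouts, and to 524 to 1060 and 851 to 1280 in males. In total RNA 1 of 10 fat cell markers was higher in females (3.79% of all genes were) and 3 in males (6.83%). Plin1, the perilipin of the fat cell, was higher in both (0.68, adjusted p = 0.0266, and 0.70, adjusted p = 0.0203). In ribosome-bound RNA the same sum was 200 to 504 CPM in female and 125 to 460 in male labelled knockouts, beside 197 to 292 and 106 to 179 in controls, and none of the fat cell markers was at 0 in all libraries of a group. In controls 9 of 10 fat cell markers were lower in ribosome-bound than in total RNA (median −1.64), beside 43.1% of all genes. The part of fat cells in the values of the 10 genes was not tested.

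Ribosome-bound libraries of female labelled knockouts also differed in other ways from those of controls. Reads outside genes made up 6.53 to 12.5% (median 9.11, controls 5 to 10% with a median of 5.38). The depth of these libraries was 0.491 to 1.21 M counts (controls 0.423 to 3.06). Female controls 18 and 19 were at 9.31 and 10% and at 0.575 and 0.423 M. The other female controls held 5 to 5.46% and 1.52 to 3.06 M, outside the range of the labelled knockouts. In males the medians of reads outside genes were 5.58% in labelled knockouts and 5.23% in controls. In ribosome-bound RNA of female labelled knockouts 5 of 5 endothelial markers, 9 of 10 fibroblast and matrix markers and 3 of 4 macrophage markers were higher. So were 5 of 5 erythroid markers and 7 of 7 mitochondrially encoded mRNAs, beside 8.44% of all genes. Here and below, only markers that passed the filter on low counts are counted. The full lists held 8, 11, 9, 6 and 13 genes in that order. A weak marker can pass the filter through the group where it is high, so these counts are descriptions. Summed endothelial markers were 61.2 to 232 CPM (controls 41.7 to 87.1) and summed fibroblast and matrix markers 407 to 1270 CPM (controls 212 to 352). The part of these differences in the ribosome-bound values of females was not tested. In total RNA of females, where Plin3, Plin4, Plin5 and Pnpla2 were lower too, 3.79% of all genes were higher. There 0 of 8 endothelial markers, 8 of 11 fibroblast and matrix markers and 2 of 9 macrophage markers were higher. The counts were 5 of 5 for erythroid markers and 0 of 8 for mitochondrially encoded mRNAs. In males, where Plin5 was lower, 5 of 5 erythroid markers were higher in both kinds of RNA. In total RNA so were 10 of 11 fibroblast and matrix markers, 2 of 9 macrophage markers and 2 of 8 mitochondrially encoded mRNAs. Of 10 kidney markers only 3 were tested there, and 3 were higher. The 10 summed to 6.45 to 1280 CPM in male labelled knockouts (median 54.7) and 3.13 to 111 in male controls (median 8.05). These labelled knockouts include replicate 6, in which kidney transcripts stood out, so the 3 calls may rest largely on 1 library. Of all genes in males 4.09% were higher in ribosome-bound and 6.83% in total RNA. Summed erythroid markers in total RNA were 813 to 2210 CPM in female and 1500 to 2600 in male labelled knockouts (controls 692 to 1090 and 728 to 1060). Their part in the total RNA values was not tested. Reads outside genes differed in total RNA as well. They made up 9.54 to 21.6% (median 11.5) in female labelled knockouts and 13 to 19.3% (median 13.8) in female controls. In males they made up 9.78 to 13.9% (median 11.1) and 12.4 to 23.4% (median 14.7) in that order. The part of these reads in the total RNA values was not tested either. Of 11 muscle fibre markers 5 were higher in ribosome-bound RNA of females (8.44% of all genes were). In total RNA of either sex 0 passed in either direction.

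The genes most like each of the 4 changed members were ranked by Pearson's r of log2 CPM over the 28 total libraries, among 10192 genes. The libraries share groups and depth, so r is a description and carries no p. Acot2 (0.93), Mlycd (0.907) and Acot1 (0.892) were most like Pnpla2. Fkbp5, a glucocorticoid-induced co-chaperone (0.869), Nt5dc3 (0.865) and Acadl (0.85) were most like Plin5. Pnpla2 itself headed the list of Plin4 (0.852), followed by Gucd1 (0.851), and Utp18 (0.801) and Clec2d (0.789) headed that of Plin3. With group means removed r fell to 0.878 for Pnpla2 and Acot2, 0.814 for Plin4 and Pnpla2, 0.579 for Plin5 and Fkbp5 and 0.66 for Plin3 and Utp18. Over the 28 ribosome-bound libraries the same pairs gave 0.647, 0.691, 0.604 and 0.199.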

How the data were processed

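RNA of gastrocnemius was measured in 56 libraries. Lexogen's QuantSeq 3' kit was given 500 ng of RNA, and reads were 50 bp long, per the labels' protocols. UMI-tools, STAR, HTSeq, DESeq2 1.40.1, R 4.3.0 and build GRCm39 are named in the submitters' processing notes. The deposited values are whole counts per gene, used as deposited. The 5 summary lines of HTSeq stayed out of library sizes (4.82 to 23.4% of reads had no feature). No column was left unused (0).

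The test of every gene was that of edgeR 4.0.16 in R 4.3.3 (filterByExpr, TMM, quasi-likelihood F-test, Benjamini-Hochberg adjustment over all genes tested, called at an adjusted p under 0.05). Ribosome-bound and total libraries were fitted apart with 4 group means each, and contrasts between them in 1 fit with 8. CPM used TMM-scaled library sizes. Depth per library sets the counting error, with 0.16 M counts at the lowest. Of the comparisons, only that of genotype in total RNA of females had its calls tested on simulated data. Alternatives were RLE factors, no filter, DESeq2 1.42.0, limma-voom (limma 3.58.1), other sets of libraries in a fit, libraries left out and the mouse as a block. The libraries left out together were 7 ribosome-bound ones under 0.75 M counts, 5 total ones with over 19% of reads outside genes, total female labelled knockouts 5, 6 and 12, and, chosen after seeing the data, 2 that held kidney transcripts.

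The 10 genes and all lists were chosen with earlier results of these data known. From each other list the text names up to 4 called genes of lowest p per contrast, and 2 genes that the rules for named genes and likeness would name are not reported here. Likeness used log2 CPM with a prior count of 2 and genes of at least 5 CPM. The number of mice is not given alike in the labels: the protocol has 14 of each sex and the design text 7 of each. The sample numbers give 7 for each sex and genotype with 2 libraries each, so libraries of a group with the same number were taken as 1 mouse, and n rests on that reading. Deviations from group means of such pairs correlated by 0.0708 on average in control females, 0.172 in labelled knockout females, −0.169 in control males and 0.0623 in labelled knockout males. The ribosome-bound library was most like the total library of its own number in 2, 5, 1 and 3 of 7 pairs, in that order. So the values do not back the pairing in male controls and back it little in control females and labelled knockout males. In male labelled knockouts, kidney transcripts stood out in total replicate 6 but in ribosome-bound replicate 1. Each mouse is 1 replicate. Dgat1 and Dgat2 promoters were not analysed here.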

Additional observations from a re-analysis of the deposited data

Results flagged for a closer look

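In 9 of 80 combinations of gene and group, 1 library stood apart from the other 6 by Dixon's criterion, which chance meets in about 1 of 20 groups. In ribosome-bound RNA these were Plin2 in male control 27 (30.3 CPM, the others 19.5 to 22.2), Plin2 in male labelled knockout 12 (31.6, the others 17.8 to 23.3), Plin3 in female control 19 (73.4, the others 45.3 to 55), Lipe in female labelled knockout 5 (52, the others 20.1 to 32.7) and G0s2 in male control 25 (72.9, the others 25.4 to 45.9). In total RNA they were Plin4 in female control 21 (352, the others 199 to 256), G0s2 in male labelled knockout 14 (141, the others 51.4 to 86.2), Dgat2 in male control 20 (98.4, the others 45.1 to 67.8) and Dgat2 in male labelled knockout 6 (117, the others 52.8 to 77.5), a library that held kidney transcripts. All 9 were the highest of their group.

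In ribosome-bound RNA the effect of genotype differed between the sexes by edgeR for Plin3 (male minus female effect 0.812) and Pnpla2 (1.20). For Pnpla2 the adjusted p stayed under 0.05 in every refit, and for Plin3 it passed or missed by library, as given with that test.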

How the results depend on the processing

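The 10 calls of genotype within a sex kept their direction and call in all 365 refits. Apart from single libraries left out, the count of called genes moved by over 1.5 times in these settings. For males against females among controls in total RNA it went from 2 to 1 in the 14 libraries alone and in the fit of all 56. For ribosome-bound against total RNA it went from 3 to 7 in controls and from 5 to 8 in labelled knockouts, with RLE and with DESeq2, whose scaling lowers the median of all genes. Leaving out 1 library, or 1 mouse where both kinds of RNA were compared, gave these counts. Genotype in ribosome-bound RNA gave 4 to 5 in females, 1 to 1 in males and 3 to 5 over both sexes, and genotype in total RNA 4 to 4, 1 to 1 and 4 to 5. The sex difference of the effect gave 1 to 3 in ribosome-bound and 0 to 0 in total RNA. Males against females gave 1 to 1 in ribosome-bound and 1 to 3 in total RNA. Ribosome-bound against total RNA gave 3 to 4 in controls and 4 to 7 in labelled knockouts, and the effect beyond total RNA 0 to 0 in both sexes. The mouse as a replicate block gave 3 calls in controls, 6 in labelled knockouts (G0s2 added, −0.403, adjusted p = 0.0214) and 0 and 0 for the effect beyond total RNA, and the block changed no other call. The shallowest ribosome-bound library (0.16 M counts) held 2 counts of Dgat1, so single values there are imprecise.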

Other observations

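Pnpla2 in total RNA of female labelled knockouts spread less than counting alone would give. The SD over 7 libraries was 1.31 CPM, where the counts of 191 to 314 per library give a counting SD of 4.75 CPM, a ratio of 0.276. Of the 80 combinations of gene and group, 6 had a spread below that of counting, and Pnpla2 in this group had the lowest ratio. Its spread in female controls was 46.1 CPM. This combination was chosen after its values were seen.

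The ratio of Plin5 to Pnpla2 was not used above. Total RNA of female controls held 0.352 to 0.508 counts of Plin5 for 1 of Pnpla2 (median 0.4), and ribosome-bound RNA of the same group 0.622 to 3.9 (median 1.39). The ribosome-bound values of 3.9 and 3.04 came from female controls 19 and 18, with 0.423 and 0.575 M counts the shallowest of that group. Total RNA of female labelled knockouts held 0.23 to 0.5 (median 0.33) and ribosome-bound RNA 1.08 to 2.8 (median 1.47).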
